A study of Mus musculus with 18 samples.

Results

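Talc is a layered magnesium silicate mineral, and J774 is a mouse macrophage line. The arrays compared here were 3 of J774 cells given 10 µg of talc per well of a 24 wells plate, in vehicle, and 3 of cells given the vehicle alone, both without estradiol, with RNA taken after 24 h. They were selected by their labels and make up 6 of the 18 arrays of the study. The other 12 arrays held cells given 2 µg/mL of 17-beta estradiol, talc with estradiol, titanium dioxide (TiO2) at the same mass per well, or TiO2 with estradiol, 3 arrays each. All cells were of this one line, grown in medium without phenol red. The labels do not say what the vehicle was, nor whether a group's arrays stand for 3 cultures grown apart. The p-values therefore measure only how these samples scatter, and that scatter may be technical. Array numbers run through the groups in order, and any effect of that order and the treatment cannot be told apart.

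Macrophages take up mineral particles by phagocytosis. Particles that resist digestion are known to set off inflammatory signalling through transcription factors such as nuclear factor kappa B and AP-1, and to stress the lysosome. Inflammatory activation of macrophages is also known to bring proliferation down and to change which surface receptors the cells carry.

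Values are log2 intensities of 23102 genes, each the mean over the probe sets of that gene, and a difference of 1 is a doubling. Median intensities of the 6 arrays lay between 46.3 and 48.0, so no array stood apart in overall brightness. Genes that define macrophages were bright: Cd68 had a mean of 12.67 with vehicle and 12.82 with talc, and Csf1r, the receptor for the macrophage growth factor CSF-1, 10.91 and 10.79. Of 10 such markers 2 fell with talc and 0 rose, namely Itgam, an integrin chain of the complement receptor, and Adgre1, the antigen F4/80. That is 20% called, against 8.46% of all genes and 19.6% of those in the brightest of 4 equal bins of level. With the brightest probe set per gene 0 of the 10 were called. The mean over the 10 neutrophil markers lay between 3.58 and 3.80 in every one of the 6 arrays, and that over the 9 T and NK cell markers between 3.60 and 3.67. Of the 53 markers of neutrophils, lymphocytes, fibroblasts, epithelium and mast cells, 1 was called, the fibroblast gene Pdgfra, which went from 5.21 to 4.55 and was not called without vehicle replicate 3 or without talc replicate 1. Of 10 osteoclast and giant cell markers 2 rose, the protease Mmp9 (0.47 ± 0.11) and the proton pump subunit Atp6v0d2 (0.55 ± 0.14), while the mean over all 10 lay between 5.72 and 5.86 with vehicle and between 5.79 and 5.82 with talc. In RNA from whole wells, fewer cells of a type and less RNA per cell cannot be told apart.

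In all, 1955 genes (8.46%) changed at an adjusted p under 0.05 in limma. Of these, 910 (3.94%) rose and 1045 (4.52%) fell, and 122 (0.528%) changed by at least 2-fold, 50 upward and 72 downward. The median over the genes that rose was 0.53, and over those that fell -0.58, so most called changes were well under 2-fold. The 3 talc arrays did not overlap the 3 vehicle arrays in 6063 genes (26.2%), and 1949 of the 1955 called genes were among them. Calls concentrated in bright genes, with 19.6% called in the brightest of 4 equal bins of level and 0.71% in the dimmest. The median change over all genes was 0.02. Without talc replicate 3 the count of called genes was 1233, the lowest value on leaving out any of the 6 arrays.

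**Figure D1:**
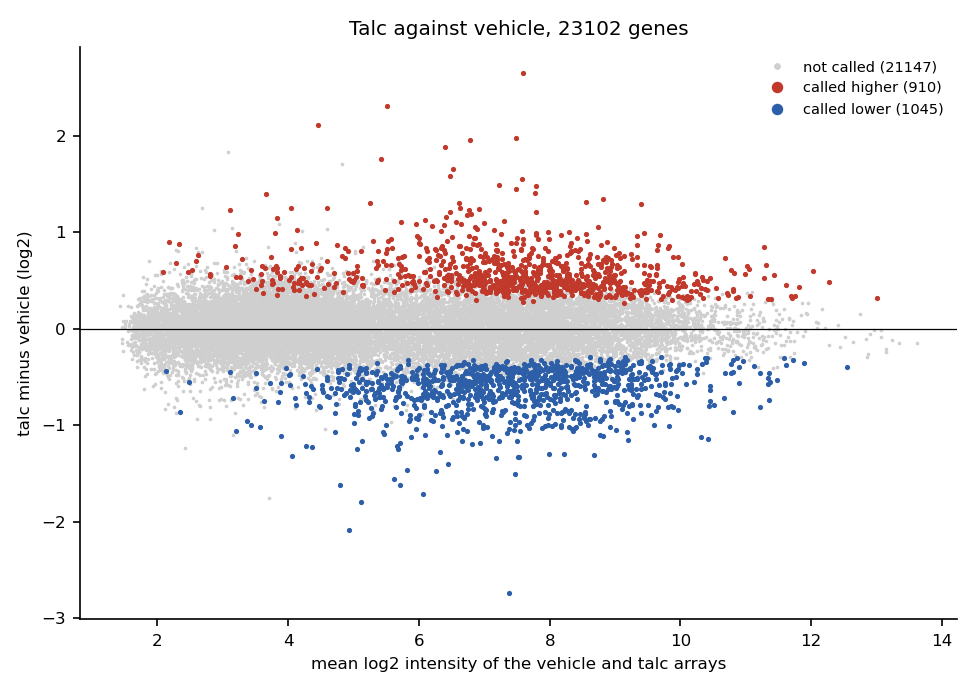
Talc minus vehicle (log2, vertical axis) against the mean log2 intensity of the vehicle and talc arrays (horizontal axis), one point per gene. The 910 genes called higher and 1045 called lower lie mostly above a log2 intensity of 4, and Snhg15 at 2.65 and Tgfbi at -2.74 mark the ends of the range.

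The promoters below belong to 1 called gene each of 6 lists described further on, and each holds letters that match a known promoter element. Each is the stretch of 250 bases before the annotated RefSeq start (build GRCm38.p6), 5′ to 3′ on the gene's own strand, upstream of the first exon. Capitals mark a match to the element searched. In Kif11, a mitotic kinesin, they are the cell cycle genes homology region (TTTGAA, read on the other strand) and a CCAAT box. In Rrm1, the large subunit of ribonucleotide reductase, they are an E2F site (TTCCCGC) and a pair of CCAAT boxes. In Nop2, a methyltransferase of ribosomal RNA, they are an E-box (CACGTG), and in Snhg15, a host gene of small nucleolar RNA, the cAMP response element (TGACGTCA). In Bcl3, an atypical inhibitor protein of the kappa B family, they are a kappa B site (GGGNNTTCC), and in Gbp2, a guanylate-binding protein, an interferon-stimulated element (GAAANNGAA).
Kif11, chr19:37376132-37376381 (plus strand): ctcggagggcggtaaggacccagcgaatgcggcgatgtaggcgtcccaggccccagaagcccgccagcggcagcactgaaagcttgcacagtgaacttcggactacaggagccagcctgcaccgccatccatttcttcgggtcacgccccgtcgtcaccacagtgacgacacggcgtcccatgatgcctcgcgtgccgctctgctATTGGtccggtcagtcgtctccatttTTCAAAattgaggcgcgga
Rrm1, chr7:102441445-102441694 (plus strand): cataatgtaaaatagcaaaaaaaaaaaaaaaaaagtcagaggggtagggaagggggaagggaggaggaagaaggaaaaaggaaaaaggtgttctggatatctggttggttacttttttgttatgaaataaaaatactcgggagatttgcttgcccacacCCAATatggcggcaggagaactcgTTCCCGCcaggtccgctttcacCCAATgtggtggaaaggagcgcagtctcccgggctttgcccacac
Nop2, chr6:125131633-125131882 (plus strand): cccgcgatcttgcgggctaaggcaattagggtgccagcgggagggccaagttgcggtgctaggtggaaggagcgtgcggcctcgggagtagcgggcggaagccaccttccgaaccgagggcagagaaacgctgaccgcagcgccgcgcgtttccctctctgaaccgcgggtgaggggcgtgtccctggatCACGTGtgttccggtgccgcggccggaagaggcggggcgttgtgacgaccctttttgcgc
Snhg15, chr11:6528761-6529010 (minus strand): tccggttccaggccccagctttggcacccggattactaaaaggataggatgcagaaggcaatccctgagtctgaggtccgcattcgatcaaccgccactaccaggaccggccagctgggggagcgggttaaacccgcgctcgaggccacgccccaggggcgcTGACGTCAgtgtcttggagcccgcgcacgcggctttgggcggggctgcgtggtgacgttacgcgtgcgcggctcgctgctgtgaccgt
Bcl3, chr7:19822756-19823005 (minus strand): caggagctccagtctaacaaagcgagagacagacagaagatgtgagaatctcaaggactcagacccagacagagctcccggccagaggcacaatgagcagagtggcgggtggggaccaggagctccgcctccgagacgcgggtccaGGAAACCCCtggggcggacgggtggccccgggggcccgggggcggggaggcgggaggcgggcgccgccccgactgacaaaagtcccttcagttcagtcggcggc
Gbp2, chr3:142620413-142620662 (plus strand): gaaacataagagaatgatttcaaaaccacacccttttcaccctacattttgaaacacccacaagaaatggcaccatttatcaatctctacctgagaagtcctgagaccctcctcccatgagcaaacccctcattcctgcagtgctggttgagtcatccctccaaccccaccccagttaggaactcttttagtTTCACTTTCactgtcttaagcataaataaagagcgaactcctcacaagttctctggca

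Over all 21502 RefSeq windows of 300 bases (250 before and 50 after the start, 17713 genes), 15.4% held the homology region on either strand, against 78.4% of the 37 windows of the mitotic genes. The CCAAT box stood in 37.8% of all windows and in 81.1% of the mitotic ones. The E2F site was found in 6.0% of all windows, in 40.5% of those of DNA replication genes and in 2.7% of the mitotic ones. Windows of the nuclear factor kappa B list held a kappa B site in 29.6% of cases, against 6.35% of all windows, and windows of the interferon list held the interferon-stimulated element in 41.2%, against 8.06%. Lists were made of known pathway genes, so these shares describe the lists and not the response to talc. Windows of all genes called higher held the kappa B site in 7.77%. They held the AP-1 site (TGANTCA) in 5.22%, against 7.2% of all windows. Windows of all genes called lower held the interferon-stimulated element in 9.05%, the homology region in 19.1%, the CCAAT box in 43.0% and the E2F site in 11.8%. Genes called higher held the core of the cAMP response element (TGACG, which the full element contains) in 38.5% of windows and genes of ribosome biogenesis in 47.5%, against 24.2% of all. Lists that fell held it too, in 37.8% of the replication windows and 32.4% of the mitotic ones. The full element stood in 10.5% of the 19 windows of small nucleolar RNA host genes and in 2.29% of all. The E-box stood in 14.3% of windows of genes called higher and in 17.5% of the 40 ribosome biogenesis windows. It stood in 13.5% of the replication windows and in 8.08% of all. These are matches of letters, and no binding was measured.

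Cell division genes fell with talc as a block. Of 42 genes of the mitotic spindle, its checkpoint and the condensins, 38 fell and 0 rose, with a median log2 change of -0.83, and all 42 had a lower mean with talc. Kif11, the motor that pushes spindle poles apart, had log2 intensities of 9.67, 9.78 and 9.85 with vehicle and 8.69, 8.52 and 8.63 with talc. Its fall of -1.15 ± 0.11 (SE, adjusted p = 9.9e-06) means that the highest talc array still stood about one log2 unit below the lowest vehicle array. Ttk, a spindle checkpoint kinase, had 8.91, 8.93 and 8.85 with vehicle and 7.90, 7.86 and 7.84 with talc, a change of -1.03 ± 0.11 (adjusted p = 1.89e-05). Top2a, the topoisomerase that untangles chromosomes, went from 10.21, 9.83 and 10.22 to 8.97, 9.21 and 9.10, a change of -0.99 ± 0.13 (adjusted p = 0.000135). The groups of arrays lay apart for each of these genes. Ncapd2 of condensin I changed by -1.05 ± 0.09 and Birc5, or survivin, of the chromosomal passenger complex by -0.97 ± 0.14. The members that were not called were Cdk1 (-0.38), Cdc20 (-0.31), Bub1 (-0.35) and Bub3 (-0.07).

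Genes that copy DNA moved the same way. Of 39 genes of replication and nucleotide supply 26 fell and 0 rose, with a median of -0.54. Tk1, which salvages thymidine, had log2 intensities of 8.51, 8.63 and 8.57 with vehicle and 7.45, 7.82 and 7.49 with talc, a change of -0.98 ± 0.13 (adjusted p = 8.9e-05). Rrm2, the small subunit of ribonucleotide reductase, had 8.74, 8.75 and 8.97 with vehicle and 7.87, 7.83 and 8.01 with talc, a change of -0.92 ± 0.12. Its partner Rrm1, whose promoter is printed above, changed by -0.64 ± 0.09. All subunits of the replicative helicase that were measured fell, from Mcm3 (-0.73 ± 0.09) to Mcm2 (-0.52 ± 0.10). The polymerase clamp Pcna (-0.17) and the flap nuclease Fen1 (-0.06) were not called.

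Of 24 genes of homologous recombination and the Fanconi pathway, which repair breaks and crosslinks during replication, 15 fell and 0 rose, with a median of -0.59. Brip1, a helicase partner of BRCA1, had 7.69, 7.64 and 7.71 with vehicle and 6.72, 6.49 and 6.49 with talc, a change of -1.11 ± 0.11 (adjusted p = 1.55e-05). Brca1 itself changed by -1.03 ± 0.11. In the list of G1/S cyclins, kinases and inhibitors 12 of 24 fell and 2 rose. The transcriptional repressor E2f8 (-1.31 ± 0.20), the cyclins Ccne1 (-0.80 ± 0.14) and Ccnd1 (-0.64 ± 0.09) and the CDK inhibitor Cdkn2c (-1.32 ± 0.11) were among those that fell. The 2 that rose were Cdkn1a, the CDK inhibitor p21 (0.64 ± 0.14), and the kinase Cdk6 (0.40 ± 0.09). Of 10 replication-dependent histones 4 fell, among them H2ac10 (-1.15 ± 0.13). These genes are near-identical copies, so the signal of one can hold that of others.

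Ribosome production moved in the opposite direction. Of 41 genes of ribosome biogenesis 31 rose and 0 fell, with a median of 0.71. Rrp12, an export factor of pre-ribosomes, had 6.62, 6.29 and 6.52 with vehicle and 8.03, 7.90 and 8.0 with talc, a change of 1.5 ± 0.13 (adjusted p = 3.72e-06), although its brightest probe set gave -0.07. Nop2 had 8.74, 8.70 and 8.82 with vehicle and 9.94, 10.01 and 10.20 with talc, a change of 1.29 ± 0.10 (adjusted p = 2.01e-06). For both genes every talc array stood more than one log2 unit above every vehicle array. Tsr1, which matures the small subunit, changed by 1.01 ± 0.13, Gnl3, or nucleostemin, by 0.99 ± 0.16 and Polr1b, a subunit of RNA polymerase I, by 0.82 ± 0.14. The abundant nucleolar proteins Ncl (-0.02) and Npm1 (0.00) were not called. With the median over probe sets in place of the mean, 19 of the 41 rose.

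Of 30 genes for proteins of the cytosolic ribosome itself 1 rose (3.33%, against 8.46% of all genes called), Rpl34 (0.48 ± 0.14), and the median was 0.14. Leaving out any array but talc replicate 1 left 0 of the 30 called. Of 20 host genes of small nucleolar RNA 7 rose and 1 fell, and without talc replicate 3 these counts were 5 and 0. Snhg15 had the largest rise of all named genes, from 6.21, 6.37 and 6.23 to 8.87, 8.75 and 9.16, a change of 2.65 ± 0.18 (6.30-fold, adjusted p = 2.65e-07). Snhg12 changed by 1.66 ± 0.16, Snhg17 by 0.89 ± 0.12 and Snhg1 by 0.88 ± 0.15, while Snhg18 fell by 0.62 ± 0.15. Of 24 translation factors 9 rose and 0 fell, and without talc replicate 3 or without vehicle replicate 1 the count was 5. They included the ribosome anti-association factor Eif6 (0.75 ± 0.10) and Eif2b3 of the exchange factor for eIF2 (0.83 ± 0.13). Among the 30 largest rises were also Pinx1, a nucleolar inhibitor of telomerase (1.46 ± 0.17), Alkbh1, a dioxygenase that acts on transfer RNA (1.21 ± 0.20), and Rpp38 of RNase P (1.19 ± 0.26), the last not called without talc replicate 3. The transfer RNA methyltransferase subunit Trmt61a was a further one, at 1.25 ± 0.16, but with its brightest probe set alone it changed by 0.0016 (adjusted p = 0.998).

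**Figure D2:**
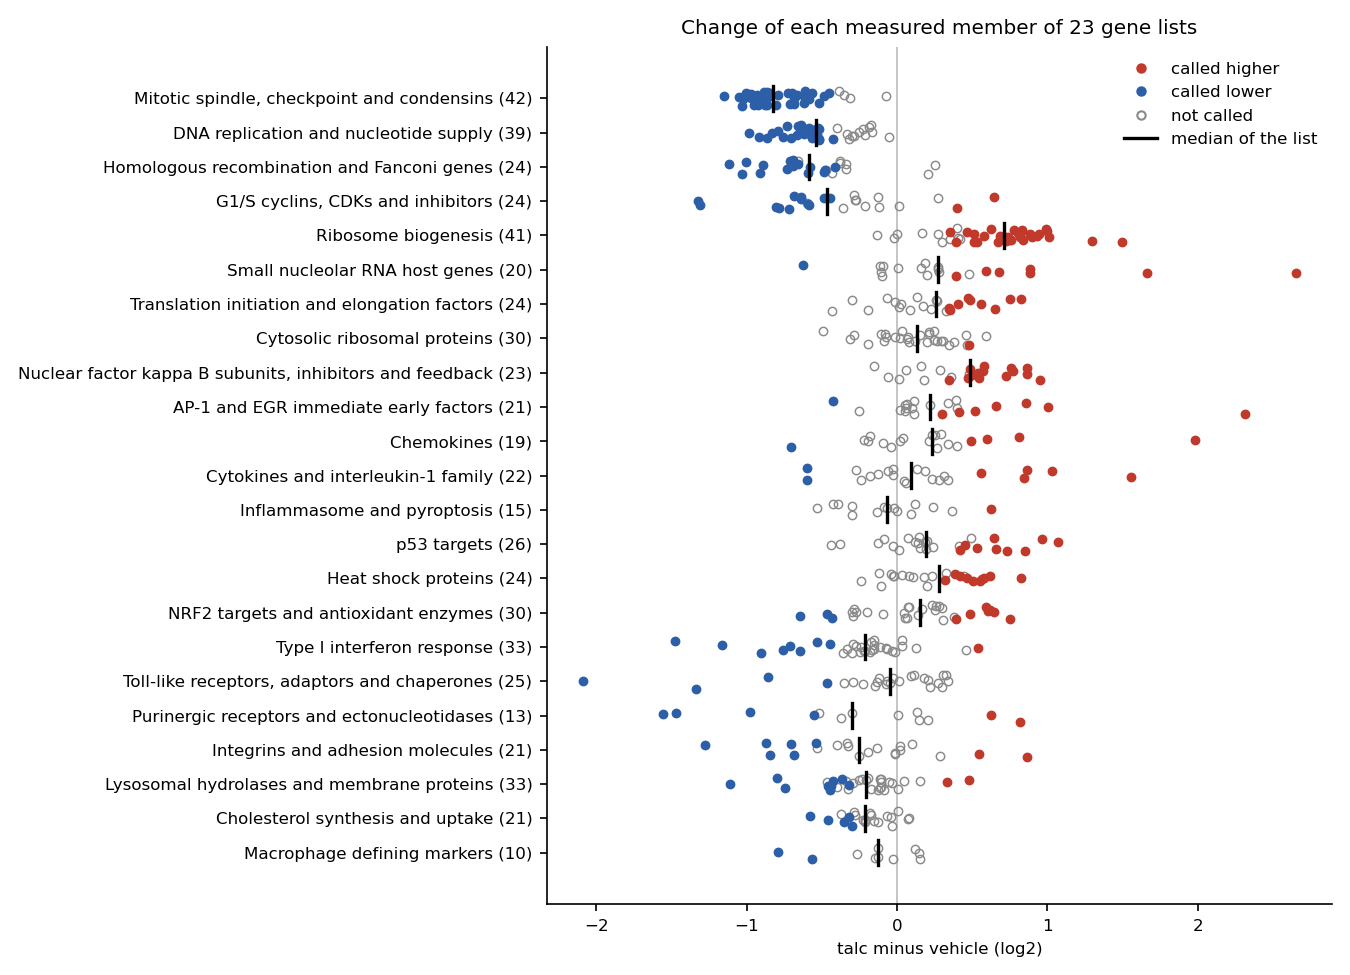
Talc minus vehicle (log2) for each measured member of 23 gene lists, with the number of members after the name; filled points passed the test and bars are list medians. Mitotic genes center on -0.83 and replication genes on -0.54, while ribosome biogenesis centers on 0.71 and cytosolic ribosomal proteins on 0.14.

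Of 23 genes on the list of nuclear factor kappa B subunits, inhibitors and feedback 14 rose and 0 fell, with a median of 0.49. With the median over probe sets the count was 9. Members of this list, as of the others, were chosen with earlier results of these data known. Icam1, an adhesion molecule for leukocytes and neither a subunit nor an inhibitor, had 8.39, 8.38 and 8.30 with vehicle and 9.21, 9.21 and 9.25 with talc. Its change was 0.87 ± 0.09 (adjusted p = 1.37e-05 in limma). Traf1, an adaptor of TNF receptors, had 6.13, 6.07 and 5.90 with vehicle and 6.98, 6.94 and 7.03 with talc, a change of 0.95 ± 0.11. Both genes were separated by more than the spread within either group. Tnfaip3, the ubiquitin-editing enzyme A20 that turns the pathway off, changed by 0.86 ± 0.12, Bcl3 by 0.77 ± 0.20 and the inhibitors Nfkbia and Nfkbie by 0.50 ± 0.10 and 0.54 ± 0.09.

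Among 21 immediate early factors of the AP-1, EGR and KLF families 7 rose and 1 fell, and with only the 6 arrays compared 5 rose and 0 fell. Fos, an AP-1 subunit, had 4.37, 4.34 and 4.37 with vehicle and 6.46, 6.76 and 6.8 with talc, a change of 2.31 ± 0.15 (4.97-fold, adjusted p = 1.94e-07). Fosl2 (1.0 ± 0.12), Junb (0.86 ± 0.11) and Egr2 (0.66 ± 0.12) rose with it, Jun (0.05) and Egr1 (0.34) were not called, and Klf2, a quiescence factor of endothelium and leukocytes, fell by 0.42 ± 0.11. Of the phosphatases that switch off MAP kinases Dusp5 (0.93 ± 0.12), Dusp1 (0.86 ± 0.14), Dusp4 (0.57 ± 0.09) and Dusp16 (0.44 ± 0.10) rose, and Dusp6 (-0.63 ± 0.09) and Dusp7 (-0.48 ± 0.10) fell. The kinase Map2k6, which activates p38, had 5.92, 5.95 and 6.14 with vehicle and 4.06, 4.36 and 4.20 with talc, a change of -1.80 ± 0.13. Mapk14, which encodes p38 alpha, fell by 0.41 ± 0.10.

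Of 19 chemokines 4 rose and 1 fell; without talc replicate 3 the counts were 3 and 0. Cxcl2, which draws neutrophils, had 6.69, 6.31 and 6.48 with vehicle and 8.39, 8.34 and 8.70 with talc, a change of 1.98 ± 0.13 (3.95-fold, adjusted p = 1.94e-07). The monocyte attractants Ccl7 (0.81 ± 0.17) and Ccl3 (0.60 ± 0.10) rose too, and Ccl2 (0.27) was not called. Of 22 cytokines 5 rose and 2 fell, or 4 and 0 without talc replicate 3. The interleukin-1 receptor antagonist Il1rn had 6.70, 6.83 and 6.87 with vehicle and 8.34, 8.13 and 8.59 with talc, a change of 1.55 ± 0.17 (adjusted p = 2.59e-05). Il1b itself was dim, with 3.52, 3.74 and 4.07 with vehicle and 4.67, 4.78 and 4.41 with talc, and changed by 0.84 ± 0.18 (adjusted p = 0.00732). Thus both the ligand and its antagonist rose, while Il1r2, the decoy receptor, fell by 0.87 ± 0.12. Oncostatin M, encoded by Osm, changed by 1.03 ± 0.11, the macrophage growth factor Csf1 by 0.86 ± 0.14 and Tnf by 0.56 ± 0.13. Il18 changed by -0.60 ± 0.15, and Il6 (0.13) and Il10 (-0.24) were not called. Of 15 genes of the inflammasome and pyroptosis 1 was called (6.67%, against 8.46% of all genes), the ATP-gated channel P2rx7 (0.63 ± 0.14). Nlrp3 changed by 0.12 and Casp1 by 0.10, neither called. Without talc replicate 1 a further gene of the 15 fell.

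Genes of the eicosanoid pathways moved in both directions. Ptgs2, the inducible cyclooxygenase, had 5.31, 5.37 and 5.68 with vehicle and 7.19, 7.24 and 7.58 with talc, a change of 1.88 ± 0.20 (adjusted p = 1.98e-05), and the prostaglandin receptors Ptger2 (0.79 ± 0.14) and Ptgir (0.61 ± 0.11) rose. The leukotriene enzyme Alox5 had 9.50, 9.43 and 9.60 with vehicle and 8.68, 8.72 and 8.66 with talc, a change of -0.83 ± 0.10 (adjusted p = 6.66e-05). Its helper Alox5ap (-0.34 ± 0.08), the synthase Ltc4s (-0.62 ± 0.18) and the receptor Cysltr1 (-0.90 ± 0.12) also fell, as did the constitutive cyclooxygenase Ptgs1 (-0.68 ± 0.12) and Hpgds (-0.62 ± 0.13), a prostaglandin D synthase. In this list 3 of 21 genes rose and 6 fell. Other rises of the inflammatory kind were those of the complement component C3 (1.35 ± 0.13), of Acod1, which makes itaconate (1.25 ± 0.19), of the messenger decay factor Zfp36 (1.22 ± 0.20) and of Rgs1, a brake on chemokine receptor signalling (1.31 ± 0.19). With the brightest probe set per gene Acod1 was at 0.45 and not called (adjusted p = 0.488). In Zfp36 the third vehicle array, at 7.80, lay well above the other two at 6.78 and 6.98, and below all talc arrays, which lay at 8.31, 8.49 and 8.41.

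Surface receptors changed in both directions. The dectin-2 family members Clec4n (1.58 ± 0.21), Clec4d (0.97 ± 0.10) and Clec4e (0.67 ± 0.09) rose. With the median over probe sets Clec4n was at 1.04 and not called (adjusted p = 0.0702). The mannose receptor Mrc1, another C-type lectin, had 6.57, 6.38 and 6.64 with vehicle and 5.0, 4.99 and 4.73 with talc, a change of -1.62 ± 0.14 (adjusted p = 5.19e-06). Dectin-1, encoded by Clec7a, fell by 0.70 ± 0.16. Among 13 purinergic receptors and ectonucleotidases, which sense or degrade extracellular nucleotides, 2 rose and 4 fell. P2ry12, a receptor for ADP, had 6.19, 6.39 and 6.63 with vehicle and 4.83, 4.68 and 5.03 with talc, a change of -1.56 ± 0.19. The other ADP receptors P2ry13 (-1.47 ± 0.15) and P2ry1 (-0.98 ± 0.22) fell with it, and the ATP receptors P2ry2 (0.82 ± 0.10) and P2rx7 rose. Of 21 integrins and adhesion molecules 6 fell and 2 rose: Mcam (-1.28 ± 0.12), Itgb5 (-0.87 ± 0.10) and Itgal (-0.84 ± 0.13) were lower, and Itga5 (0.54 ± 0.12), the fibronectin receptor chain, was higher. Of the Fc and complement receptors and their neighbours on the list 4 of 17 fell and 0 rose, including Cd33 (-1.12 ± 0.13) and the inhibitory Fc receptor Fcgr2b (-0.74 ± 0.09). That is 23.5% called, against 8.46% of all genes and 19.6% of the brightest of the 4 bins of level. The scavenger receptor Msr1 rose by 0.49 ± 0.11, and Marco (0.15) and Cd36 (0.24) were not called.

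Of 25 Toll-like receptors, adaptors and chaperones 4 fell and 0 rose, which is 16% called against 8.46% of all genes and 19.6% of the brightest of the 4 bins of level. Tlr8, an endosomal receptor of single-stranded RNA, had 5.96, 5.83 and 6.15 with vehicle and 4.0, 3.84 and 3.82 with talc, a change of -2.09 ± 0.19 (4.26-fold lower, adjusted p = 5.85e-06). Tlr7, which senses the same class of RNA, had 7.72, 7.81 and 8.01 with vehicle and 6.49, 6.71 and 6.33 with talc, a change of -1.34 ± 0.12. Tlr5, the flagellin receptor, changed by -0.86 ± 0.11 and Ly86, the partner of the receptor-like protein RP105, by -0.47 ± 0.10. Of 33 genes of the type I interferon response 8 fell and 1 rose, with a median of -0.21; with the brightest probe set per gene 3 fell. Epsti1 had 7.22, 6.91 and 6.85 with vehicle and 5.40, 5.55 and 5.59 with talc, a change of -1.48 ± 0.13. Stat2, a factor of the interferon receptor pathway, fell by 0.53 ± 0.11 and Gbp2 by 0.91 ± 0.26 (adjusted p = 0.04), and Ifi35 rose by 0.54 ± 0.10. Of 14 genes of cytosolic nucleic acid sensing 0 were called in limma.

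**Figure D3:**
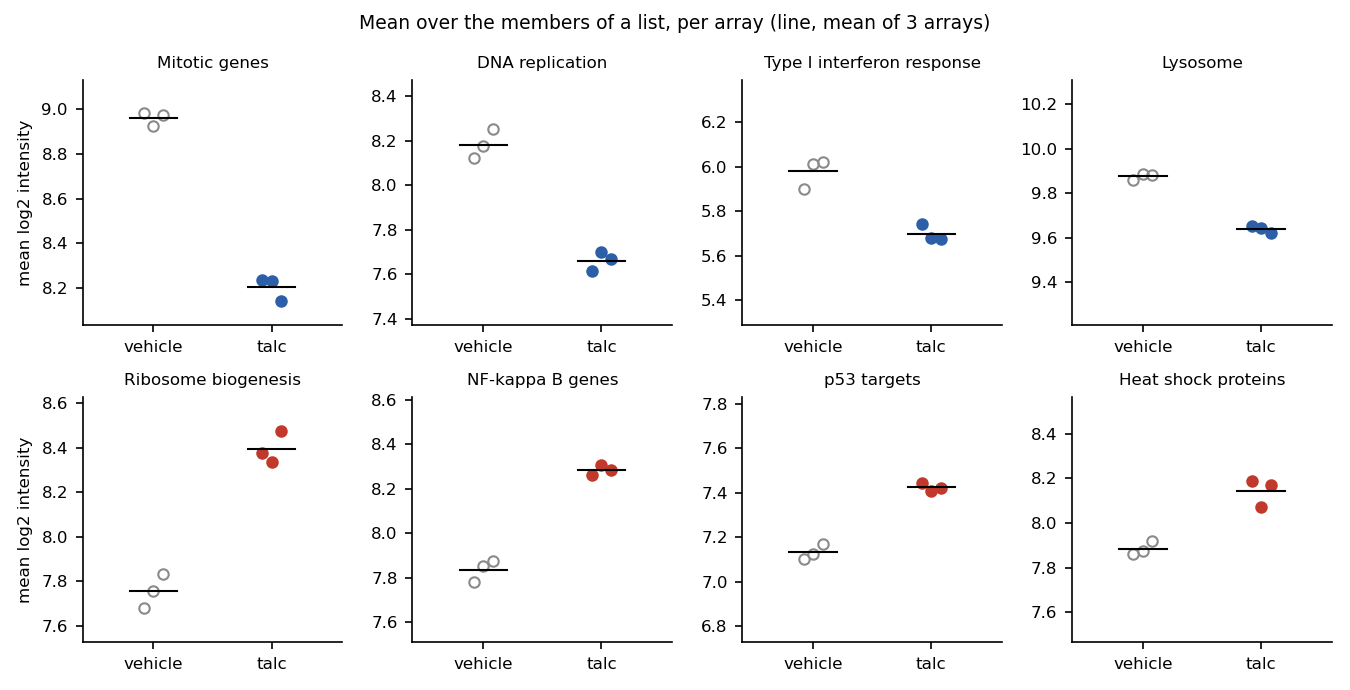
Mean log2 intensity over the members of 8 gene lists in each vehicle array (open) and talc array (filled), with the mean of 3 arrays as a line and the same span on every vertical axis. Mitotic genes lay between 8.92 and 8.99 with vehicle and between 8.14 and 8.24 with talc, and ribosome biogenesis between 7.68 and 7.83 and between 8.34 and 8.48.

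Of 26 targets of p53, 9 rose and 0 fell, with a median of 0.20. Aen, an exonuclease of apoptosis, had 5.77, 5.64 and 5.58 with vehicle and 6.76, 6.83 and 6.61 with talc, a change of 1.07 ± 0.11 (adjusted p = 2.21e-05). Plk3 (0.96 ± 0.14), Plk2 (0.85 ± 0.09), the p53 ubiquitin ligase Mdm2 (0.73 ± 0.15) and Cdkn1a rose as well. The polo-like kinases therefore divided, with the stress-responsive Plk2 and Plk3 higher and the mitotic Plk1 (-0.66 ± 0.08) and centriolar Plk4 (-0.41 ± 0.11) lower. Gadd45b, a stress sensor upstream of MAP kinases, had 6.91, 7.17 and 7.08 with vehicle and 8.60, 8.32 and 8.70 with talc, a change of 1.49 ± 0.14.

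Of 25 genes of the integrated stress response and amino acid supply 2 rose and 6 fell. Those that rose were Ppp1r15a, the phosphatase subunit that restores translation (1.12 ± 0.11), and Ddit3, the factor CHOP (0.97 ± 0.12). Amino acid genes of the same list were lower, such as the transporters Slc7a5 (-0.76 ± 0.11) and Slc7a11 (-0.64 ± 0.15) and the serine synthesis enzyme Psat1 (-0.48 ± 0.11). Without vehicle replicate 3 the counts were 2 and 3. Of 22 genes of the unfolded protein response and ER chaperones 0 rose and 2 fell, and 1 fell on leaving out any of the 6 arrays. Of 24 heat shock genes 10 rose and 0 fell, led by Hsph1 (0.82 ± 0.13). That count fell to 5 without talc replicate 1 and to 6 without talc replicate 3 or vehicle replicate 2. Of 30 NRF2 targets and antioxidant genes 7 rose and 3 fell, or 6 and 0 with the median over probe sets: thioredoxin reductase Txnrd1 (0.75 ± 0.09), heme oxygenase Hmox1 (0.64 ± 0.11) and Gclm of glutathione synthesis (0.60 ± 0.09) were higher, and superoxide dismutase Sod1 (-0.43 ± 0.12) was lower. The transferrin receptor Tfrc rose by 0.95 ± 0.14, the metallothioneins Mt2 (-0.57 ± 0.12) and Mt1 (-0.36 ± 0.09) fell, and so did hepcidin, encoded by Hamp (-0.86 ± 0.21).

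Of 33 lysosomal hydrolases and membrane proteins 9 fell and 2 rose, with a median of -0.20. Sgsh, a heparan sulfatase, had 9.35, 9.34 and 9.42 with vehicle and 8.15, 8.34 and 8.29 with talc, a change of -1.11 ± 0.14 (adjusted p = 9.66e-05). Man2b1, the lysosomal mannosidase, changed by -0.80 ± 0.11 and the protease Lgmn by -0.74 ± 0.09. Without talc replicate 3 the counts were 5 lower and 0 higher, without vehicle replicate 3 they were 6 and 0, and without vehicle replicate 2 they were 7 and 0. The proton pump subunit Atp6v1h rose by 0.80 ± 0.13 and Rab20, a small GTPase of phagosomes, by 1.04 ± 0.11.

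Lipid genes moved in both directions. Osbp2, an oxysterol-binding protein, had 5.83, 5.67 and 5.89 with vehicle and 7.82, 7.71 and 7.73 with talc, a change of 1.96 ± 0.09 (3.88-fold, adjusted p = 3.14e-09), while its relative Osbpl3 fell by 0.88 ± 0.10. Hilpda, which inhibits lipolysis at lipid droplets, changed by 1.41 ± 0.13. Abcd2, a peroxisomal fatty acid transporter, had 6.88, 6.98 and 6.89 with vehicle and 5.31, 5.67 and 4.6 with talc, a change of -1.72 ± 0.27, but with its brightest probe set alone it was at -1.03 and not called (adjusted p = 0.122). The mitochondrial gatekeeper of fatty acid oxidation, Cpt1a, changed by -1.01 ± 0.15. Of 21 genes of cholesterol synthesis and uptake 18 had a lower mean with talc, and 5 fell and 0 rose, with a median of -0.21. That is 23.8% called, against 8.46% of all genes and 19.6% of the brightest of the 4 bins of level. Yet on leaving out any of the 6 arrays 1 or 2 fell. Of 26 genes of glycolysis and the hypoxia response 2 rose and 1 fell (11.5% called, near the 8.46% of all genes), and without vehicle replicate 2 or 3, or talc replicate 1 or 3, 0 rose and 1 fell.

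Tgfbi, which TGF-beta induces and which encodes a secreted matrix protein, had the deepest fall of all, from 8.70, 8.83 and 8.69 to 6.12, 5.90 and 5.98, a change of -2.74 ± 0.10 (6.68-fold lower, adjusted p = 8.88e-11). The inhibitors of the TGF-beta pathway Skil (1.10 ± 0.12) and Smad7 (0.81 ± 0.15) rose, and 5 of 27 genes of that list rose while 1 fell. Among growth factors Pgf, a relative of VEGF, had 3.16, 3.56 and 3.48 with vehicle and 5.71, 5.01 and 5.81 with talc, a change of 2.11 ± 0.21 (4.32-fold, adjusted p = 1.39e-05), and with its brightest probe set alone it was at 2.92 and not called (adjusted p = 0.057). Hbegf (0.94 ± 0.17) and Pdgfb (0.74 ± 0.10) also rose, and the hepatocyte growth factor Hgf (-0.76 ± 0.15) fell. The macrophage transcription factor Maf had 8.25, 8.08 and 8.22 with vehicle and 6.92, 7.02 and 6.62 with talc, a change of -1.33 ± 0.13. Of 23 identity and lineage factors 3 fell and 1 rose, with a median of 0.04. That is 17.4% called, against 8.46% of all genes and 19.6% of the brightest of the 4 bins of level. Without vehicle replicate 3 the counts were 2 and 0. Tnfsf13b, a survival factor for B cells, changed by -1.40 ± 0.14, and the ligand Cd274, or PD-L1, rose by 0.79 ± 0.17.

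**Figure D4:**
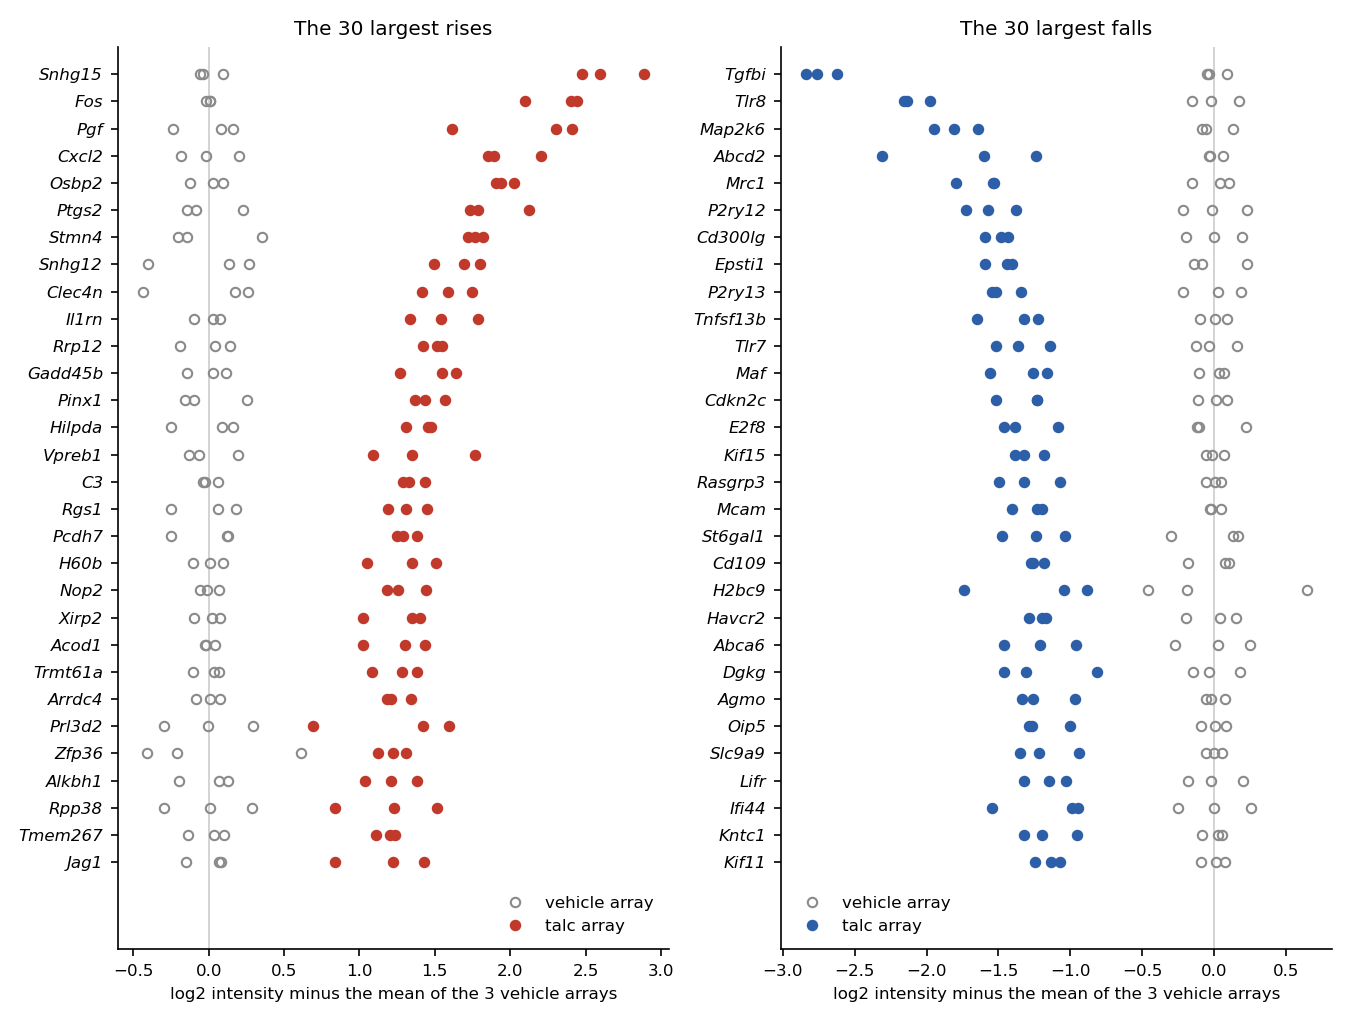
Log2 intensity of each vehicle array (open) and talc array (filled) minus the mean of the 3 vehicle arrays, for the 30 largest rises and the 30 largest falls among called genes whose arrays do not overlap. Talc arrays of Prl3d2 and H2bc9 come closest to a vehicle array, and those of Snhg15 and Tgfbi lie farthest away.

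The same genes were then read against the other particle. Talc and TiO2 differed in 2301 genes (9.96%), 1064 of them higher and 1237 lower with talc; with array medians subtracted the split was 732 and 1449, and without talc replicate 3 the count was 1353. TiO2 minus vehicle, which shares its vehicle arrays with the comparison above, gave 0 called genes in limma. At an unadjusted p under 0.05 there were 1886 (8.16%), and the smallest adjusted p in limma was 0.0818. These 0 calls do not show that TiO2 had no effect. Talc minus TiO2 uses the same talc arrays by which the largest rises and falls were selected, so its calls among them are a description. Over the 30 largest rises with talc the median change with TiO2 was 0.06, and talc minus TiO2 was called in 28. Over the 30 largest falls it was -0.17, and talc minus TiO2 was called in 26. Snhg15 changed by 0.05 ± 0.18 with TiO2, Fos by 0.11 ± 0.15, Cxcl2 by 0.24 ± 0.13 and Ptgs2 by -0.19 ± 0.20. For each of these 4 genes talc minus TiO2 was called, at 2.61, 2.20, 1.75 and 2.07.

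Some of the genes that fell had TiO2 values on the same side. Ifi44 changed by -1.16 ± 0.25 with talc and by -1.07 ± 0.25 with TiO2, and talc minus TiO2 was -0.09 ± 0.25 (adjusted p = 0.884). Havcr2, the receptor TIM-3, changed by -0.88 ± 0.23 with TiO2, Dgkg by -0.87 ± 0.29 and Mrc1 by -0.74 ± 0.14, none of them called against vehicle. Talc minus TiO2 was -0.34 ± 0.23 in Havcr2 and -0.32 ± 0.29 in Dgkg, neither called, and -0.88 ± 0.14 in Mrc1, which was. E2f8 changed by -0.70 ± 0.20 with TiO2 and by -0.61 ± 0.20 with talc minus TiO2, neither called. Read from its brightest probe set alone, the fall with talc was itself not called in Havcr2 (-1.30) or Dgkg (-0.0075). Among the largest rises Vpreb1 changed by 0.85 ± 0.28 and Prl3d2 by 0.71 ± 0.28 with TiO2, neither called. Talc minus TiO2 was 0.55 ± 0.28 and 0.53 ± 0.28 in these genes, not called either. Mitotic genes had a median of -0.02 with TiO2 minus vehicle and -0.74 with talc minus TiO2, ribosome biogenesis -0.02 and 0.64, and the nuclear factor kappa B list 0.01 and 0.51.

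Whether estradiol altered the response was asked of the difference between talc minus vehicle and talc plus estradiol minus estradiol. In limma 0 of 23102 genes (0%) passed, 1460 had an unadjusted p under 0.05, and the smallest adjusted p was 0.236. The median standard error of this difference was 0.21, against 0.15 for talc minus vehicle. Differences far above that size did not pass, such as 1.32 ± 0.27 in Tlr8 and -1.32 ± 0.40 in Vpreb1. The 0 calls therefore do not show that the responses were equal. With estradiol present 27 of the 30 largest rises and 27 of the 30 largest falls were called as well, with medians of 1.28 and -1.04, against 1.38 and -1.30 without it. These genes were selected for the size of their change without estradiol, so the medians are not compared on equal terms. Vpreb1, a pre-B cell receptor chain that was dim here, changed by 1.40 ± 0.28 without estradiol and by 0.08 ± 0.28 with it, and Prl3d2, a placental prolactin relative near the bottom of the range, by 1.24 ± 0.28 and 0.06 ± 0.28. The adjusted p of the difference was 0.639 for Vpreb1 and 0.644 for Prl3d2. Without estradiol the brightest probe set of Vpreb1 gave 0.22 and that of Prl3d2 -0.19, neither called. Tlr8 changed by -2.09 ± 0.19 without and by -0.77 ± 0.19 with estradiol, with an adjusted p of 0.634 for the difference. Estrogen receptor genes were not called with talc: Esr1 changed by -0.24, Esr2 by -0.04 and Gper1 by -0.01.

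**Figure D5:**
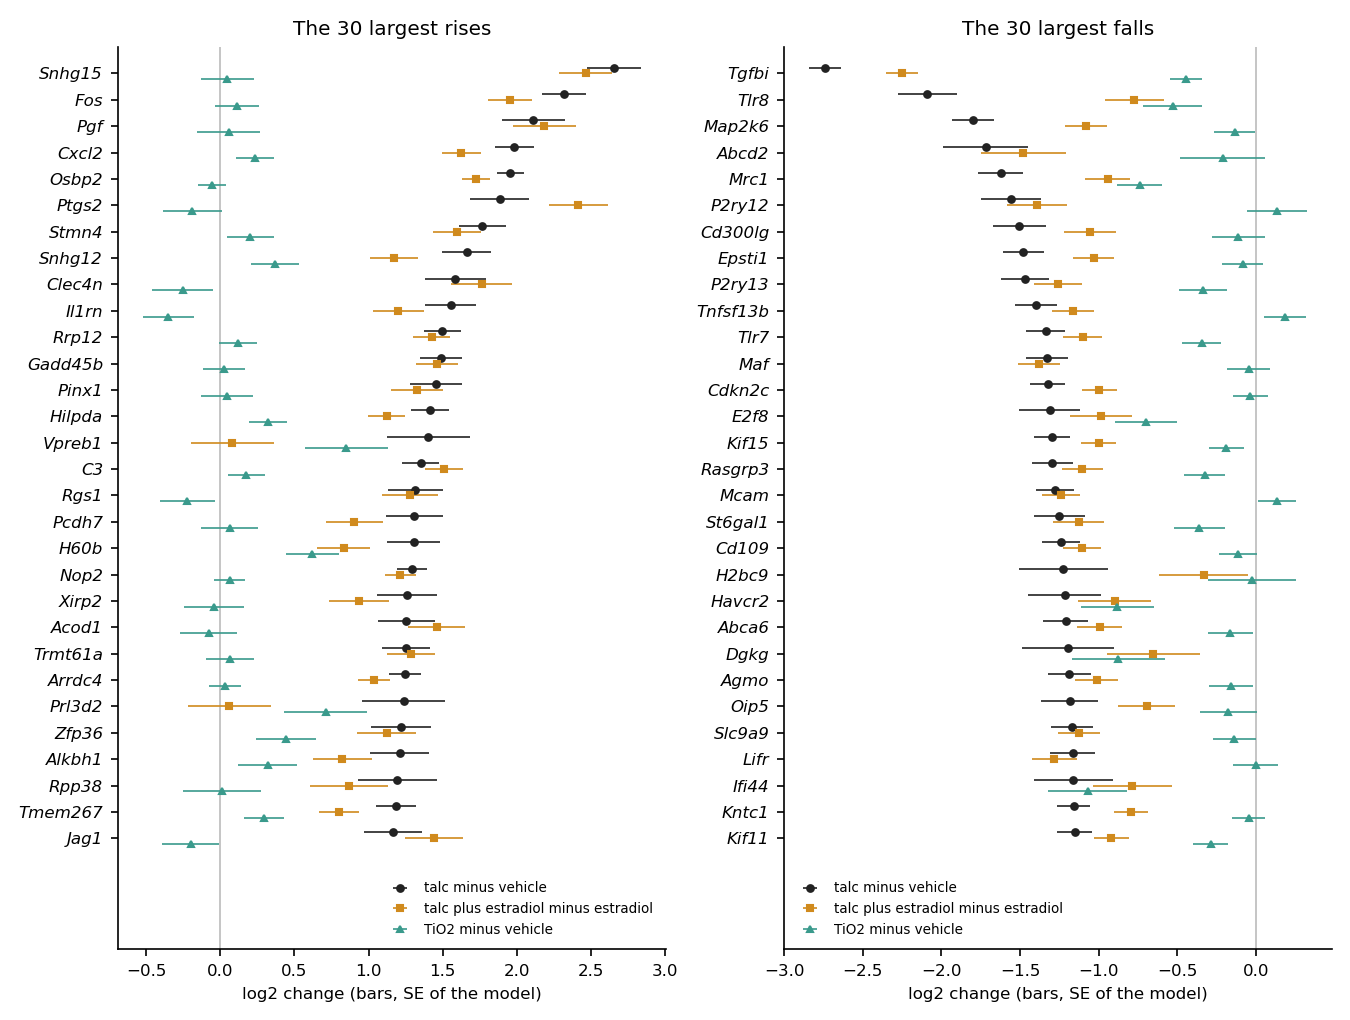
Log2 changes with standard errors of the 30 largest rises and 30 largest falls for talc minus vehicle (circles), talc plus estradiol minus estradiol (squares) and TiO2 minus vehicle (triangles). Circles were selected for their size; squares have medians of 1.28 and -1.04 and triangles of 0.06 and -0.17, and circles and triangles share the vehicle arrays.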

How the data were processed

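Total RNA of J774 cells was labelled with biotin and measured on Affymetrix arrays. The deposited table holds linear intensity values of the authors, 1.458 to 17256, for each array and probe set; RMA is the tool named, per the submitters' processing notes, and the annotation step is not given in the sources used here. Log2 was taken first. A gene's value was the mean over its probe sets with a single symbol, 233753 of 269751, and 2247 older symbols were updated, so opposite moves within a gene average out. One limma 3.58.1 model (R 4.3.3, files read with data.table, version 1.17.8) took in all 18 arrays and estimated 1 mean for each group (lmFit and eBayes, 12 residual degrees of freedom), with two-sided tests and Benjamini-Hochberg adjustment over 23102 genes, called at 0.05. No gene or array was left out. For arrays, their number limits the precision. Errors are standard errors of the model (SE).

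Gene lists, 71 with 1530 measured members, were described by counts and medians. Named genes were the 30 largest rises and 30 largest falls among called genes without overlapping arrays, leaving out predicted, clone and small RNA genes (76 called), and list members. Members and lists were chosen with earlier results of these data known. The fit was tested on simulated data. Alternatives were other gene values, filters, normalizations, variance models, array weights, fewer arrays and leaving out each array.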

Additional observations from a re-analysis of the deposited data

Results flagged for a closer look

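Probe sets that entered no gene value also held differences between talc and vehicle. With each probe set tested on its own in limma, 126 of the 30892 probe sets with no gene symbol passed (0.408%), 41 higher and 85 lower with talc, and 70 of the 5106 with several symbols passed (1.37%), 23 higher and 47 lower. The share among probe sets with a single symbol was 1.64%. The farthest values among those with no symbol were log2 changes of 3.01 ± 0.66 and -2.65 ± 0.42. Both rest on dim values, with a vehicle mean of 1.67 in the first and a talc mean of 1.57 in the second. The smallest adjusted p among them in limma, 7.44e-06, went with a rise of 2.38 ± 0.14 from 5.95. No gene was named from these probe sets. Groups of 3 arrays are too small for a test of single outlying arrays.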

How the results depend on the processing

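The count of genes called for talc against vehicle, 1955, was 1251 with only the 6 arrays compared and 1181 with the median over probe sets, and between 1233 and 1535 when single arrays were left out. The count for talc against TiO2, 2301, was 1011 with only the 6 arrays compared, 1480 with the brightest probe set per gene, 1278 with the median over probe sets, and between 1353 and 1855 without single arrays. The interaction gave 0 calls under every alternative run, with a smallest adjusted p between 0.0943 and 0.693. With the brightest probe set per gene Rrp12 (-0.065), Prl3d2 (-0.19) and Abca6 (0.71) changed sign, none of them called there, and 11 further named genes were no longer called: Pgf, Vpreb1, H60b, Xirp2, Acod1, Trmt61a, Arrdc4, Abcd2, Havcr2, Dgkg and Lifr. With the median over probe sets Clec4n, Jag1 and Dgkg lost the call. Over all alternatives for the 60 named genes 868 values kept direction and call and 22 lost the call. A fit without the dimmest array, that of TiO2 plus estradiol, chosen after seeing the data, gave 2061 calls for talc against vehicle. Between 32 and 40 of the mitotic genes were called over the alternatives, and between 24 and 29 of the replication genes. The cause of these shifts was not tested. Dim genes gave few calls. No paired analysis was possible because the labels number the arrays straight through all groups and share no replicate number between them.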

Other observations

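Predicted, clone and small RNA genes, which the rule for named genes only counted, made up 3750 of the genes tested, and 42 of them were called higher and 34 lower with talc. Of 17 circadian clock genes 11.8% were called, near the 8.46% of all genes. The nuclear receptor Nr1d1 rose by 0.89 ± 0.13 and Per3 fell by 0.51 ± 0.13. Without vehicle replicate 2 or 3 or talc replicate 3 only 1 gene of this list was called, as higher. Among 29 mitochondrial ribosomal proteins 7 rose, led by Mrps18b (0.98 ± 0.10), but without vehicle replicate 1 the count was 1, and without any other single array 2 to 4. Of 33 proteasome subunits 4 rose and 32 had a higher mean with talc, and without vehicle replicate 1 or talc replicate 2 the count that rose was 2. That is 12.1% called with all arrays, against 8.46% of all genes and 19.6% of the brightest of 4 equal bins of level. Stmn4, a member of the stathmin family known from neurons, had log2 intensities of 4.40, 4.89 and 4.34 with vehicle and 6.36, 6.26 and 6.31 with talc, a change of 1.77 ± 0.16, and changed by 0.20 ± 0.16 with TiO2. H60b, a ligand of the activating receptor NKG2D, changed by 1.30 ± 0.18 with talc and by 0.62 ± 0.18 with TiO2, the latter not called; with its brightest probe set alone the talc value was 0.49 and not called (adjusted p = 0.0779).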
